A study of Mus musculus with 6 samples.

Results

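Eosinophil granule genes were followed in mouse bone marrow cells selected for c-Kit. The list held 7 genes: Epx, Prg2 and Prg3, which encode granule proteins, and the eosinophil-associated ribonuclease genes Ear1, Ear2, Ear6 and Ear10. Rows were matched by gene symbol, from a list drawn up with earlier results of these data known. Of the 7, 6 were found among the 20097 listed genes and all 6 passed the filter on low values; Ear10 was not among the listed rows and was not analysed here. RNA had been sequenced from 3 libraries labelled WT and 3 labelled Runx1 KO, for the gene of the transcription factor RUNX1. All 6 came from cells carrying Kit, the receptor that marks blood stem and progenitor cells. The labels do not say how or when Runx1 was disrupted, nor the age or sex of the mice. They also do not say whether replicates came from separate animals, so the p-values measure only the spread between these libraries.

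Eosinophils are granulocytes that store cationic proteins in specific granules. The granule core is major basic protein, encoded by Prg2, and Prg3 encodes its homologue. The matrix around it holds eosinophil peroxidase, encoded by Epx, and ribonucleases, which in rodents form a family of recently duplicated Ear genes. The messages for these proteins are made in progenitors, before the granules are full, so they can be read in immature marrow cells. Ear2 and Prg2 messages are also known from other myeloid cells, so the list is not a marker of eosinophils alone.

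The Ear copies are shown first, because their likeness limits how far their rows can be read separately. Over coding sequence from GENCODE M21 (GRCm38), Ear2 was 97.0% identical to Ear10 and 95.1% identical to Ear1, whereas Ear6 was between 87.3% and 87.6% identical to each of the other copies. A window of 60 coding bases was chosen where Ear1, Ear10 and Ear6 together held the most differences from Ear2. It read as follows, with capitals at bases that differ from Ear2. Positions are counted from the first base of the start codon (365 to 424 in Ear2 and Ear10, 362 to 421 in Ear1 and Ear6).
Ear2: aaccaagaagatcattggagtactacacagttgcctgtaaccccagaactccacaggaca
Ear1: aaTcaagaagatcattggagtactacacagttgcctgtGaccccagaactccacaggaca
Ear10: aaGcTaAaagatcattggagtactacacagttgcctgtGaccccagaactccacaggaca
Ear6: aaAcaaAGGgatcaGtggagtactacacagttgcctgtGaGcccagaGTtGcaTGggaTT
In this window Ear1 differed from Ear2 at 2 bases and Ear10 at 4, against 14 for Ear6, so the choice rested mostly on Ear6. Elsewhere Ear1, Ear2 and Ear10 could not be told apart: bases 177 to 236 were the same in all of them and differed at 4 positions in Ear6.
Ear2: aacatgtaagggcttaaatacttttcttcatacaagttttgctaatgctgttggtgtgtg
Ear6: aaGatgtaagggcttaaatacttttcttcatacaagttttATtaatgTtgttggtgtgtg

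Sharing between transcripts was measured with sliding windows, since the read length is not given in the sources used here. Of the 50-base windows of each transcript, 57.4% in Ear1 and 41.5% in Ear2 also occurred in the transcript of another gene, against 1.07% in Ear6. With windows of 100 bases the shares were 23.9%, 13.9% and 0%. Ear1 shared most with the pseudogene Ear-ps9 and Ear2 with Ear10. Epx, Prg2 and Prg3 had no such window at either length. How reads common to copies were assigned is not stated, so the Ear1 and Ear2 rows are uncertain as separate genes, and their sum with Ear6 is given beside them. The Prg2 and Prg3 coding sequences were 63.2% identical, so their rows do not share reads in this way.

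Each library held between 23297526 and 26793380 recovered reads. Values below are normalised read counts, that is, reads divided by a size factor for the library, and 3 reads were worth between 2.88 and 3.14 of them, a floor that covers counting error only. Runx1 RNA was higher, 6399 ± 494 under the label Runx1 KO against 3109 ± 356 under WT (SD, n = 3). A count over the whole gene does not show whether an exon was lost, and the groups are called by their labels throughout. Kit was higher there (12649 ± 1093 against 8301 ± 280). Of 15410 genes tested with limma, 21.9% had an adjusted p under 0.05, 11.3% lower and 10.6% higher under the label Runx1 KO. Of the calls, 48.4% were higher, and 63.5% when libraries were scaled by their totals. Bulk RNA cannot tell fewer cells of a type from less RNA per cell.

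Not all granule genes passed the test. Epx, Ear1 and Ear2 fell in the libraries labelled Runx1 KO, Prg2 was lower without passing the threshold, and Prg3 and Ear6 overlapped between the groups. Thus 3 of the 6 genes were called lower, beside 11.3% of all tested genes, and 0 were called higher, beside 10.6%. All 3 were called and fell by more than 1 on the log2 scale. Of all tested genes, 5.02% were called with a log2 change of -1 or less. The median log2 change of the 6 was -0.98, beside -0.0042 over all genes tested. In 3 of the 6, every library labelled Runx1 KO lay below every library labelled WT, which held for 21.9% of all tested genes, and in 0 of the 6 did every one lie above, beside 21.4%. The count of 3 became 4 without Runx1 KO replicate 1, 2 without WT replicate 2 or Runx1 KO replicate 3, and 1 without Runx1 KO replicate 2, where only 4.65% of all tested genes were called lower.

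**Figure D1:**
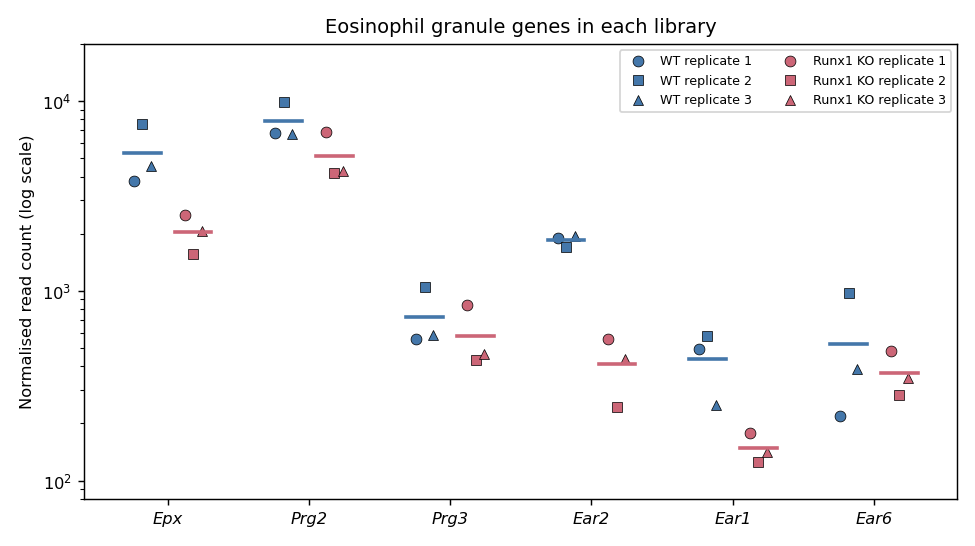
Normalised read count (log scale) of the 6 listed genes in each library; points are libraries (shape gives the replicate number, colour the label) and bars are group means. The 3 libraries labelled Runx1 KO lie below all 3 labelled WT for Epx, Ear2 and Ear1, while the groups overlap for Prg2, Prg3 and Ear6.

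Epx (ENSMUSG00000052234; GRCm38 chromosome 11, 87864000 to 87875536, minus strand) encodes the peroxidase that makes hypobromous acid from hydrogen peroxide. It had 3808, 7553 and 4566 normalised reads in WT replicates 1 to 3, and 2514, 1567 and 2065 in Runx1 KO replicates 1 to 3. Its highest library labelled Runx1 KO was under the lowest labelled WT, although WT replicate 2 stood well above the other WT libraries. The mean fell 2.59-fold, from 5309 ± 1980 to 2048 ± 474 (SD, n = 3). This was a log2 change of -1.34 ± 0.27 (SE), and limma gave an adjusted p of 0.0158. Leaving out Runx1 KO replicate 2 gave -1.16 with a limma adjusted p of 0.0596, which ended the call.

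Prg2 (ENSMUSG00000027073; chromosome 2, 84980461 to 84983632, plus strand), the gene of the granule core protein, was the most abundant of the list. It had 6822, 9918 and 6747 normalised reads in the WT libraries and 6848, 4184 and 4303 in those labelled Runx1 KO. The groups overlapped because Runx1 KO replicate 1 stood at the level of WT replicates 1 and 3, while the other libraries labelled Runx1 KO were lower than every WT library. The means were 7829 ± 1809 and 5112 ± 1504 (SD, n = 3). Their log2 change of -0.63 ± 0.23 (SE) did not pass, limma giving an adjusted p of 0.0871. With Runx1 KO replicate 1 left out, the change was -0.86 and did pass, at a limma adjusted p of 0.0177. DESeq2 on recovered reads also called it with all libraries, at -0.62 and an adjusted p of 0.0185.

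Prg3 (ENSMUSG00000027072; chromosome 2, 84988215 to 84993886, plus strand) lies 4583 bases downstream of Prg2 on the same strand. Its values were 555, 1049 and 585 in the WT libraries and 845, 432 and 464 in those labelled Runx1 KO. The groups overlapped, with the highest library of each (WT replicate 2 and Runx1 KO replicate 1) above all the rest. The log2 change of -0.33 ± 0.33 (SE) had an adjusted p of 0.491 in limma, so no difference beyond the spread was detectable. The ratio of Prg2 to Prg3 was on average 3.46 ± 0.20 on the log2 scale among WT libraries and 3.17 ± 0.13 under the label Runx1 KO (SD, n = 3). That difference of -0.29 did not stand out either (two-sided exact permutation p 0.2, where 0.1 is the smallest possible).

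Ear2 (ENSMUSG00000072596; chromosome 14, 44102654 to 44103534, plus strand), a secreted ribonuclease gene, had the lowest log2 change of the list. It had 1900, 1710 and 1955 normalised reads in the WT libraries, a narrow range, and 555, 244 and 440 in those labelled Runx1 KO. The groups lay far apart, the highest library labelled Runx1 KO being under the lowest WT library by more than the whole range of the WT group. The mean fell 4.49-fold, from 1855 ± 128 to 413 ± 158 (SD, n = 3). On the log2 scale this was -2.24 ± 0.28 (SE), at an adjusted p of 0.00341 by limma. When the 6 libraries were left out 1 by 1, the change ran from -2.50 to -1.90, with limma adjusted p values of at most 0.0147.

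Ear1 (ENSMUSG00000072601; chromosome 14, 43818765 to 43875517, minus strand), the near copy, fell too. Its values were 495, 575 and 249 in the WT libraries and 178, 125 and 142 in those labelled Runx1 KO. The groups did not overlap, though WT replicate 3 stood much nearer to the lower group than the other WT libraries. The mean fell 2.97-fold, from 440 ± 170 to 148 ± 27.0 (SD, n = 3). In log2 units the change was -1.49 ± 0.31 (SE), and its adjusted p in limma was 0.0181. The call was lost without WT replicate 2, Runx1 KO replicate 2 or Runx1 KO replicate 3, at limma adjusted p values of 0.0527, 0.0715 and 0.0587. The Ear1 span overlaps other annotated genes, among them the pseudogene Ear-ps9 on the same strand. How reads over such overlaps were counted is not stated.

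Ear6 (ENSMUSG00000062148; chromosome 14, 51853699 to 51854643, plus strand), the most diverged of the copies by sequence, was not called. It had 218, 973 and 387 normalised reads in the WT libraries and 484, 281 and 345 in those labelled Runx1 KO. All 3 libraries labelled Runx1 KO lay inside the WT range, which spanned 4.47-fold. The fitted change, -0.27 ± 0.51 (SE) in log2, had an adjusted p of 0.735 by limma, and it was 0.31 without WT replicate 2, the opposite direction.

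The sum of the 3 Ear rows is free of how reads were divided among them only if shared reads were counted once. Even then, the sum depends on how reads shared with genes outside it were counted, above all Ear-ps9 for Ear1 and Ear10 for Ear2. If reads common to copies were dropped, the sum lacks them too. It was 2613, 3258 and 2591 in the WT libraries and 1218, 650 and 927 in those labelled Runx1 KO, without overlap. Fitted as 1 row in place of the 3, the sum changed by -1.64 ± 0.22 (SE) in log2, at an adjusted p of 0.00428 by limma, and it passed in each fit that left out a library. Ear2 made up between 52.5% and 75.5% of the sum in the WT libraries and between 37.5% and 47.4% in those labelled Runx1 KO. The share of Ear6 was between 8.33% and 29.9% in the former and between 37.2% and 43.3% in the latter. Ear6 was thus a larger part of the summed rows in every library labelled Runx1 KO than in any labelled WT, while its own level overlapped between them. These shares leave out Ear10 and rest on how reads that Ear1 and Ear2 share with other copies were counted, which is not stated.

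**Figure D2:**
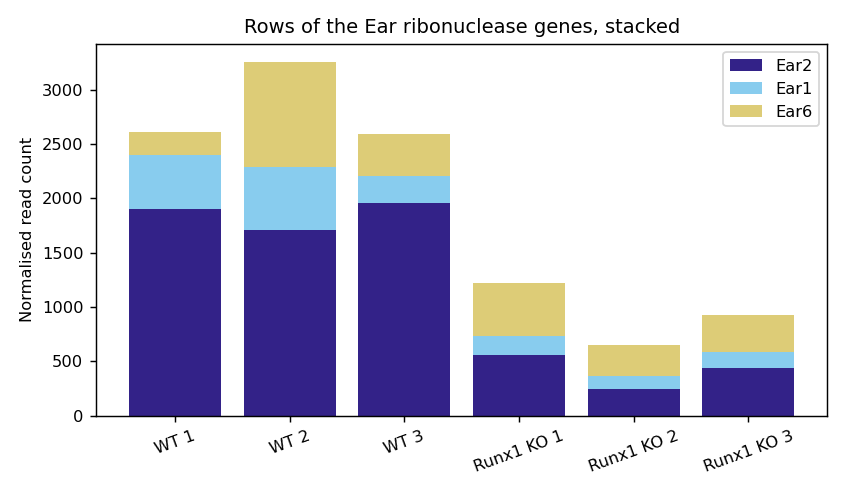
Normalised read counts of Ear2, Ear1 and Ear6 stacked for each library, so that the bar height is their sum. The bars reach from 2591 to 3258 in the WT libraries and from 650 to 1218 in those labelled Runx1 KO, mostly through a smaller Ear2 part.

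**Figure D3:**
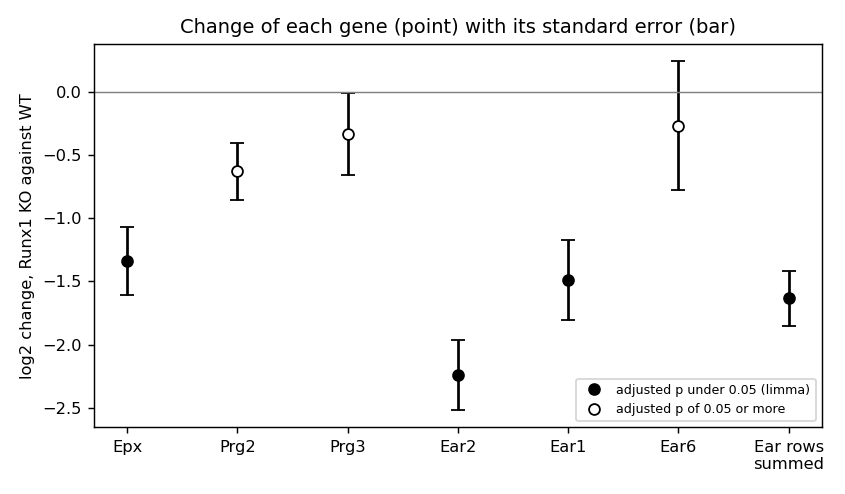
Log2 change from WT to Runx1 KO of each listed gene and of the summed Ear rows, with the standard error from limma as bars. Epx, Ear2, Ear1 and the sum are filled, having an adjusted p under 0.05.

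Within a library, genes of the list can be compared by ratio, and 4 pairs were set side by side. The log2 ratio of Epx to Prg2 was -0.60 ± 0.23 in the WT libraries and -1.31 ± 0.22 in those labelled Runx1 KO, without overlap. The summed Ear rows against Prg2 went from -1.46 ± 0.13 to -2.46 ± 0.24, again without overlap (SD, n = 3). Epx against its relative Mpo, the peroxidase of neutrophil granules, went from -3.88 ± 0.42 to -5.08 ± 0.36. Each of these 3 differences had a two-sided exact permutation p of 0.1, the smallest that 3 libraries against 3 allow, and 0.133 when adjusted over the 4 pairs, so a p under 0.05 was out of reach by design.

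Levels of different genes were compared per kilobase of exon. In the WT libraries Prg2 stood at 9343 ± 2159 normalised reads per kilobase, followed by Ear2 at 2580 ± 179 and Epx at 1940 ± 723. Prg3 at 769 ± 292, Ear1 at 602 ± 232 and Ear6 at 556 ± 419 came next (SD, n = 3). Their ranges overlapped, though Prg3 was above Ear6 in every WT library. Under the label Runx1 KO Prg2 again led at 6100 ± 1795 per kilobase, followed by Epx at 748 ± 173, Prg3 at 612 ± 242 and Ear2 at 574 ± 219. The ranges of Epx, Prg3 and Ear2 overlapped, though Epx was above Prg3 and Ear2 in every library labelled Runx1 KO. Ear6 at 392 ± 110 and Ear1 at 203 ± 37.0 were the lowest. The places of Ear1 and Ear2 are uncertain, as the handling of reads they share with other copies is not known. In WT the levels of Ear2 and Epx overlapped, Epx being the higher in WT replicate 2. Together the 6 genes held between 0.0521% and 0.0833% of the normalised reads of a WT library and between 0.0277% and 0.0469% of one labelled Runx1 KO.

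Libraries of a group differed from one another in the same genes. WT replicate 2 was the highest WT library in 5 of the 6 genes, all but Ear2, and exceeded the mean of the other WT libraries by 1.46-fold for Prg2, 1.80-fold for Epx, 1.84-fold for Prg3 and 3.22-fold for Ear6. Runx1 KO replicate 1 was the highest of its group in all 6, between 1.33-fold for Ear1 and 1.89-fold for Prg3 above the mean of the other libraries. The SD of log2 values among WT libraries was 0.51 for Epx, 0.32 for Prg2, 0.51 for Prg3, 0.64 for Ear1 and 1.09 for Ear6, beside a median of 0.14 over all tested genes, and for Ear2 it was 0.10. Among the libraries labelled Runx1 KO, Ear2 had the widest spread of the list, 0.61 beside a median of 0.13, and the other 5 genes ran from 0.26 for Ear1 to 0.53 for Prg3. The 11 late neutrophil granule genes also summed highest there, to 99908 normalised reads against 37430 and 32989 in Runx1 KO replicates 2 and 3, but among WT libraries their sum was highest in replicate 1, at 303610, not in replicate 2. The part of this in the granule genes was not tested.

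Of the genes next to the listed loci, P2rx3 was the only one called that is not itself on the list. Epx lies 197 bases from Mks1, which had 199 ± 43.2 normalised reads in the WT libraries and 240 ± 20.5 in those labelled Runx1 KO (limma adjusted p 0.270). Slc43a3, on the side of Prg2 away from Prg3, had 4837 ± 428 and 4544 ± 269 (limma adjusted p 0.464). P2rx3, an ATP-gated channel gene on the other side of Prg3, went from 65.6 ± 20.4 to 26.2 ± 2.17 (log2 change -1.25, limma adjusted p 0.0188). The lincRNA Gm49101, which overlaps Ear2 on the opposite strand, had 15.8, 13.1 and 21.1 normalised reads in the WT libraries. Under the label Runx1 KO it had 4.18, 2.97 and 0.995, around the floor of 3 reads. It was called lower together with Ear2 (log2 change -2.33, limma adjusted p 0.0126). As the strand setting of the counting is unknown, Ear2 reads counted in the Gm49101 row cannot be told apart from its own. That row was small beside the 1710 to 1955 normalised reads of Ear2 in the WT libraries.

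The stretch before the start of the Ear genes was read because Ear1 and Ear2 were called lower and Ear6 was not, a difference that was not itself tested. RefSeq promoter entries (GRCm38.p6) matched 6 of the 7 genes, all but Prg2. The 250 bases before each RefSeq start were searched on both strands. For Ear1 these bases (43819640 to 43819889) lay inside the longer GENCODE span given above. The words searched were TGTGGT or TGCGGT for RUNX, AGATAA or TGATAA or AGATAG or TGATAG for GATA, TTGCNNAA for C/EBP and GAGGAA for PU.1; none of the matches overlapped another. The C/EBP word, found in 9.56% of all 32851 promoter entries, was present once in Ear2, Ear1 and Ear10. In Ear6 the aligned bases did not match it. The 60 bases around it are shown on the strand of each gene, at chr14:44102538-44102597 (plus) for Ear2, chr14:43819698-43819757 (minus) for Ear1, chr14:43923657-43923716 (minus) for Ear10 and chr14:51853630-51853689 (plus) for Ear6, with the aligned 8 bases in capitals.
Ear2: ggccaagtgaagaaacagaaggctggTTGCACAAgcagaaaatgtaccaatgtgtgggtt
Ear1: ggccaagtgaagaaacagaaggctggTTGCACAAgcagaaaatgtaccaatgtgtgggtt
Ear10: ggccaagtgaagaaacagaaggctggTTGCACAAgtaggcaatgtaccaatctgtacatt
Ear6: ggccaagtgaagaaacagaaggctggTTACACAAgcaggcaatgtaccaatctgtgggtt
The Ear1 and Ear2 stretches were the same over these 60 bases, and 97.6% identical over the 250, against 77.3% for Ear2 and Ear6. The RUNX word occurred in the Prg3 window alone, 24 to 19 bases before its start, and so did the GATA word, 123 to 118 bases before it; 18.6% and 26.5% of all promoter entries held them. The PU.1 word, held by 23.25% of the entries, was in none of the 6 windows, and no searched word was in that of Epx. A match is a run of letters and shows no binding.

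Of the ribonuclease relatives, 7 of 20 listed symbols had rows and 6 were tested. Of these 2 were called lower, beside 11.3% of all tested genes. Rnase6, a myeloid ribonuclease gene, fell from 1033 ± 284 to 464 ± 185 normalised reads (log2 change -1.18, SE 0.31, limma adjusted p 0.0361), and Rnase12 by 1.72 on the log2 scale (limma adjusted p 0.00521). The other 4 did not pass. Without WT replicate 1, WT replicate 3, Runx1 KO replicate 2 or Runx1 KO replicate 3, 1 of the pair was called. Rnh1, the inhibitor that binds these ribonucleases in the cytosol, had 2966 ± 38.1 and 2645 ± 271 (limma adjusted p 0.169). Of the peroxidase relatives, Mpo had 75017 ± 5684 and 68125 ± 1732 and Lpo 132 ± 26.2 and 171 ± 15.9, and neither passed (limma adjusted p 0.233 and 0.175).

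The receptors that eosinophils carry were called in both directions. Of 18 receptor and surface genes, 17 were tested, with a median log2 change of -0.21. Of these 5 were called lower, beside 11.3% of all tested genes, and 4 higher, beside 10.6%. The 5 became 3 without WT replicate 2 or WT replicate 3 and 2 without Runx1 KO replicate 2. Il5ra, the receptor chain for interleukin 5 that drives eosinophil growth, had 104, 96.9 and 84.4 normalised reads in the WT libraries and 101, 88.2 and 60.7 in those labelled Runx1 KO, with overlap (limma adjusted p 0.527). Siglecf, a sialic acid receptor of mouse eosinophils, rose from 917 ± 64.0 to 1281 ± 61.3 (log2 change 0.48, SE 0.08, limma adjusted p 0.00778). Ccr3, the eotaxin receptor, had 212, 332 and 454 against 39.8, 34.7 and 223; only Runx1 KO replicate 3 reached the WT range, and the change of -2.21 (SE 0.69) did not pass (limma adjusted p 0.0609). Il1rl1, the receptor for interleukin 33, rose by 1.15 on the log2 scale (limma adjusted p 0.00618), and Alox15, a lipoxygenase gene of eosinophils, fell by 3.24 (limma adjusted p 0.0192). The other genes called higher were Itga4 and Cysltr2, and the others called lower were Itgam, Adgre1, Csf2ra and Cd300a.

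Factors that set eosinophil fate and build granules were also mixed. All 17 with rows were tested, with a median log2 change of -0.22. Of these 6 were called lower, beside 11.3% of all tested genes, and 2 higher, beside 10.6%. Only 3 were called lower, and 3 higher, with scaling by library totals, and 3 lower without WT replicate 1, WT replicate 2, Runx1 KO replicate 2 or Runx1 KO replicate 3. Cebpe, a factor needed for granule genes of eosinophils and neutrophils, fell from 2983 ± 539 to 1614 ± 63.4 (log2 change -0.87, SE 0.12, limma adjusted p 0.00488). Id2, an inhibitor of helix-loop-helix factors, fell by 1.85 (limma adjusted p 0.00346), and Cd63, a granule membrane tetraspanin, by 1.46 (limma adjusted p 0.00128). Gata2 and Zfpm1, which encodes a partner of GATA factors that holds back eosinophil genes, rose by 0.82 and 0.89 (limma adjusted p 0.0128 and 0.00381). Gata1, needed for the eosinophil lineage, had 1585 ± 228 and 2386 ± 594, and Cebpa 2575 ± 96.6 and 2494 ± 154; neither passed (limma adjusted p 0.0628 and 0.642). The other genes called lower were Spi1, Ikzf1 and Vamp8, each by less than Cebpe.

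**Figure D4:**
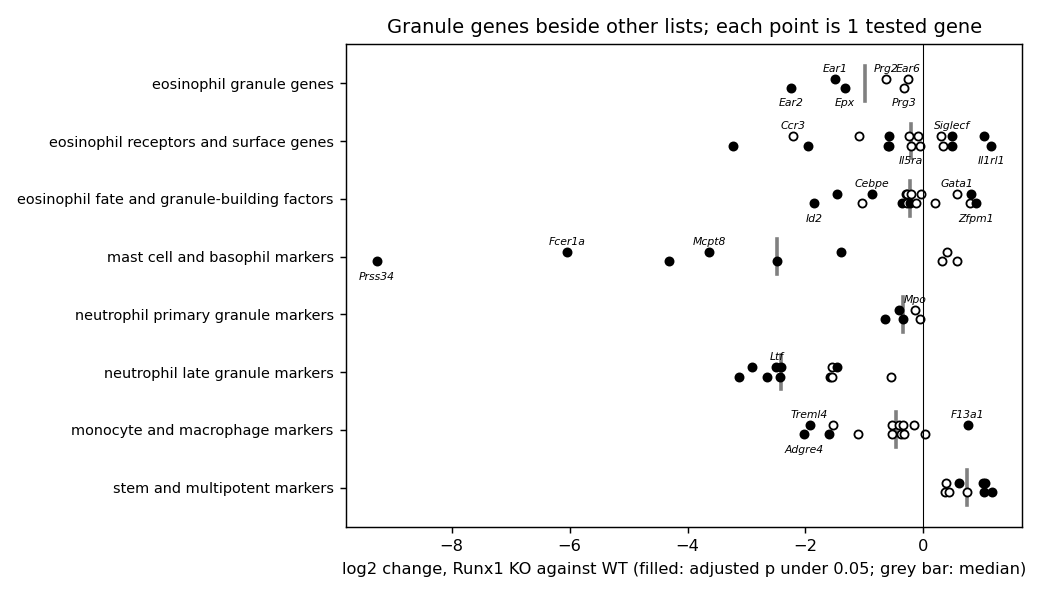
Log2 change from WT to Runx1 KO of each tested gene in 8 lists (points; filled where the limma adjusted p was under 0.05), with the median of each list as a grey bar. The granule genes lie between -2.24 and -0.27, while mast cell and basophil markers reach -9.26.

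Other cells of the marrow use some of the same genes, so their markers are given beside the granule genes. Of 14 mast cell and basophil markers 10 had rows and 9 were tested. Of these 6 were called lower, beside 11.3% of all tested genes, and 0 higher, beside 10.6%. The basophil protease gene Prss34 had between 2069 and 4096 normalised reads in the WT libraries and between 1.99 and 5.23 in those labelled Runx1 KO, and Fcer1a, of the IgE receptor, between 180 and 364 against between 0.99 and 4.97. Mcpt8, another basophil protease gene, had between 1452 and 1846 against between 120 and 139. No library was at 0 for Prss34 or Fcer1a. Their values under the label Runx1 KO lay around the floor of 3 reads, which is between 2.88 and 3.14 normalised reads. Ms4a2, another chain of the IgE receptor, was called lower but kept between 295 and 379 normalised reads under the label Runx1 KO, against between 767 and 1046 under WT. Gzmb and Cma1 were the other genes called lower. The 6 became 5 without WT replicate 1 and 4 without WT replicate 2, WT replicate 3 or Runx1 KO replicate 2. Without WT replicate 1, 2 genes of the list were called higher, and 1 was without Runx1 KO replicate 3. The 3 tested genes that did not pass all had positive log2 changes: 0.40 for Cpa3, a mast cell protease gene, 0.31 for Hdc, which encodes the histamine-forming enzyme, and 0.57 for Cd200r3 (limma adjusted p 0.194, 0.0950 and 0.367). The whole list summed to between 12670 and 17224 normalised reads in the WT libraries and to between 9754 and 12144 in those labelled Runx1 KO.

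Neutrophil granule genes were read at an early and a late stage. Over all tested genes 11.3% were called lower and 10.6% higher, the shares to set beside the counts in this paragraph. Of the 5 primary granule genes 3 were called lower, with a median log2 change of -0.35, and their sum was between 155420 and 182720 normalised reads in the WT libraries and between 137380 and 142280 in those labelled Runx1 KO. Of the 11 late granule genes 8 were called lower, with a median of -2.42 and sums between 189310 and 303610 against between 32989 and 99908. Of 14 monocyte and macrophage markers 3 were called lower (Adgre4, Treml4 and Cx3cr1) and 1, F13a1, higher, and their sums overlapped, between 46274 and 56069 against between 43659 and 59285. Stem and multipotent markers were higher, with 5 of 9 called higher and a median of 0.74. Of the B-lymphoid markers 5 of 7 were called lower (median -4.60), but 3 without WT replicate 3, 1 without Runx1 KO replicate 2 and 2 without Runx1 KO replicate 3. Of the T-lymphoid markers limma called 0 of 6 (median -1.55), with 2 lower at an unadjusted p under 0.05. DESeq2 called 2 of them lower, limma 4 with a replicate block, and 5 without Runx1 KO replicate 1. Of the erythroid markers 3 of 8 were called lower, and without Runx1 KO replicate 1 another 3 were called higher. Of 5 megakaryocyte markers 2 were called higher, 1 without WT replicate 1, WT replicate 2, Runx1 KO replicate 1 or Runx1 KO replicate 2, and 4 by DESeq2. Without Runx1 KO replicate 2, the counts above became 1 for primary and 5 for late neutrophil granule genes and 3 for stem markers, and 1 primary gene was called without Runx1 KO replicate 3. The monocyte count of 3 lower became 6 without WT replicate 1 and 7 without Runx1 KO replicate 1. The part of any of these cells in the change of the granule genes was not tested.

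For each of the 6 genes, the 5 genes closest in profile were taken by root mean square distance between centred log2(normalised read count + 1) values over the 6 libraries, among tested genes with a mean of at least 50. This is a description over 6 libraries that share the group difference. Ear2 was closest to Csrp3, Sh2d1b1, Gngt2, Adgre4 and Treml4, in that order, at distances from 0.16 to 0.26. Adgre4 and Treml4 stood on the monocyte list. Of the 14 genes of that list 3 were called lower, 1 higher and 10 were not called, beside 11.3% lower and 10.6% higher of all tested genes. Adgre4 went from 2330 ± 578 to 582 ± 190 normalised reads and Treml4 from 1171 ± 327 to 312 ± 104 (SD, n = 3). Epx was closest to Asb2, Cp, F10, Selenom and the pseudogene Cd63-ps, from 0.19 to 0.27. Ear1 was closest to Farp1, C1rl, Slc22a15, Anxa1 and 1810055G02Rik, from 0.22 to 0.29.

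Among the granule genes themselves Prg2 and Prg3 were the closest pair, at a distance of 0.20, and Prg2 was the second closest of all genes to Prg3. Ear2 and Ear6 were the farthest apart at 1.21. Epx and Ear1 were 0.38 apart, Epx and Prg2 0.40, and Epx and Ear2 0.59. Ear1 and Ear2, in spite of the bases they share, were 0.60 apart. Their WT libraries differed in order: Ear1 was lowest in WT replicate 3, where Ear2 was highest. The nearest genes to Prg2 were 5 pseudogenes or predicted genes led by Gm12435, at 0.11. Those nearest to Ear6 were Gm18194, Hddc3, Zfp993, Gdf15 and Prg3, from 0.28 to 0.38.

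**Figure D5:**
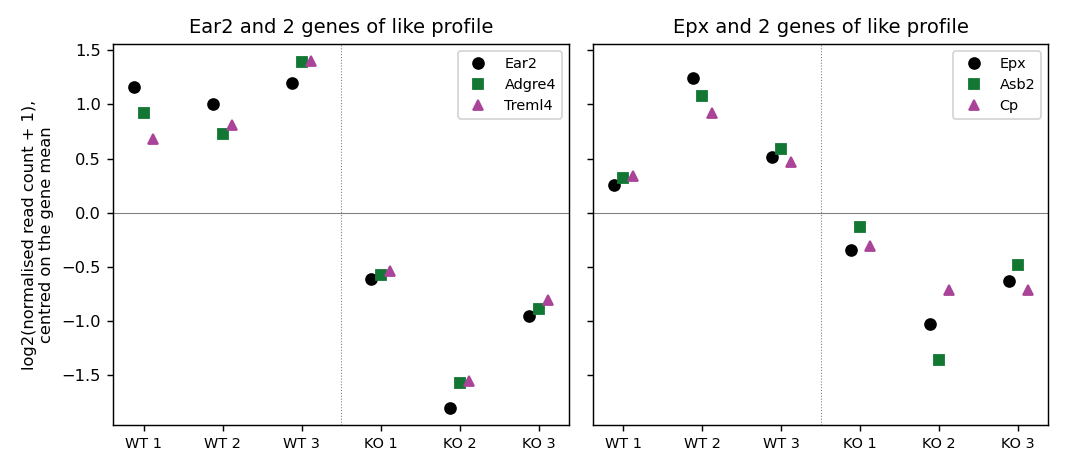
Log2(normalised read count + 1) centred on each gene's mean in the 6 libraries (KO stands for the label Runx1 KO), for Ear2 with Adgre4 and Treml4 and for Epx with Asb2 and Cp. By distance Adgre4 and Treml4 ranked 4 and 5 for Ear2, and Asb2 and Cp ranked 1 and 2 for Epx. Ear2 and its companions are highest in WT replicate 3 and lowest in Runx1 KO replicate 2, while Epx, Asb2 and Cp are highest in WT replicate 2.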

How the data were processed

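The authors deposited, for each gene and library, a signal equal to its reads over that library's size factor. This was worked out from the values: 100% were whole multiples of 1 step in each of the 6 files, within 0.001. HISAT2, HTSeq 0.9.1 and mm10/GRCm38 are named in the submitters' processing notes, with no role, and the normalization, the strand setting and the handling of shared reads are not given in the sources used here. The lowest total of a listed gene was 10 reads, and genes under that total were not analysed here.

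Symbols came from a table of Ensembl identifiers (20077 of 20097 matched) and positions from GENCODE M21. limma 3.58.1 (lmFit, eBayes with trend, R 4.3.3) was fitted to log2(value + 1), by group alone and two-sided. Benjamini-Hochberg adjustment ran over 15410 genes kept by filterByExpr (minimum count 10, minimum total 15); 4687 were left out. Log2 changes understate those of low genes. The threshold was an adjusted p of 0.05. edgeR 4.0.16, DESeq2 1.42.0 and limma-voom on recovered reads were alternatives, with other pseudocounts, filters and scalings, a replicate block and each library left out. In 4 of the 6 files the step lies so near 1 that the recovery of reads rests on exact multiples alone. Exact permutation tests used SciPy 1.17.1, and alignments Biopython 1.88. The fitting was tested on simulated data. Named genes were the listed genes, their genomic neighbours, defining markers, context genes past the threshold and the 5 genes of closest profile. The members and the 13 context lists were chosen with earlier results of these data known. The genes overlapping Ear1 and Ear2, the promoter words, Hdc, Cd200r3, and the ribonuclease and peroxidase relatives that did not pass were added after values were seen.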

Additional observations from a re-analysis of the deposited data

How the results depend on the processing

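Over the 12 alternatives that kept all 6 libraries, Epx, Ear1 and Ear2 were called lower in every one that fitted them, and 2 to 4 rows of the list were called lower; the 2 came where the Ear rows were summed, which left Epx and the sum. Prg2 passed in 1 of them, DESeq2 (log2 change -0.62, adjusted p 0.0185), and its adjusted p otherwise ran up to 0.112; the cause was not tested. Omitting 1 library at a time leaves its group with 2; this gave log2 changes from -1.55 to -1.05 for Epx, from -1.86 to -1.25 for Ear1, from -0.86 to -0.45 for Prg2 and from -0.76 to 0.31 for Ear6. From 1 to 4 listed genes were then called lower, and over all genes 1367 to 3597 were called, 735 to 1963 lower and 632 to 1634 higher, against 3370, 1739 and 1631. Of the context genes, 21 to 55 were called lower and 9 to 17 higher.

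The replicate numbers shared between the labels were checked by the correlation of deviations from the group means, which was 0.29, 0.13 and -0.01 for numbers 1 to 3. The libraries are therefore taken to share only a number, and not every library correlated best with its own. With the replicate block limma called 3843 genes, and 3 listed genes lower, the same 3 as without it, with log2 changes of -1.34, -1.49 and -2.24 for Epx, Ear1 and Ear2. The Ear-ps9 pseudogene had at most 7.06 normalised reads and was too low to enter the fit. Why its row was low, and why Ear10 had no row, was not tested.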
